A study of Mus musculus with 288 samples.

Results

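The elastic fibre genes described here are Eln, the fibrillins Fbn1 and Fbn2, the microfibril-associated genes Mfap4 and Emilin1, the fibulins Fbln1, Fbln2 and Fbln5, and the cross-linking enzymes Lox and Loxl1, which make 10 of the 35904 genes measured. They were taken by name. Eln in the lung was selected on its daily rhythm and level there. Its rhythm there, its difference after IH there and its comparison of that difference with other tissues are therefore a description with no test. It is left out of those counts of called members. Its lung level beside that of the next tissue is a description too, though that pair stayed in the count of tissue pairs below. Its levels in the other tissues are tested like those of the other members. For the other members the list used no measured value, but it was drawn up with earlier results of these data known.

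An elastic fibre has a core of cross-linked elastin, the extracellular protein that lets lung, large arteries, skin and ligament recoil after stretch. The core is laid down on a scaffold of fibrillin microfibrils, fibulins and emilin link the soluble precursor to that scaffold, and lysyl oxidases join the chains into a polymer that turns over very slowly. In the lung the fibres run through the alveolar septa, airways and vessels and are made mainly by fibroblasts, myofibroblasts and smooth muscle cells.

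Wild-type male C57BL/6J mice of 8 weeks breathed room air (normoxia) or air cycling between 21% and 8% oxygen during the light phase (intermittent hypoxia, IH) for 7 days. Both groups then spent 2 days in constant darkness in room air, so no animal was in hypoxia when tissue was taken. On the second dark day the lung, heart, muscle, kidney, liver and cerebellum were collected every 3 h over 24 h, at 8 time points labelled from 1:30 to 22:30 h, with 3 libraries per time point, treatment and tissue. These replicates came from separate mice, by the methods of the study. What hour 0 stands for is not given in the labels, and fitted peak times are given below in decimal hours on the same axis. This gave 24 libraries per tissue and treatment and 288 in all, in TPM, the share of a transcript in its library after division by transcript length, which can be set side by side between genes. The organs of 1 mouse may stand in several tissues under the same replicate number, which the labels do not say. TPM keeps no read depth, so the depth behind each value is unknown.

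Before any comparison, 2 libraries went against their labels. The IH liver library of replicate 2 at 13:30 h had 1144 TPM summed over 5 liver markers, against 19771 to 88131 TPM in the other 47 liver libraries, and 7450 TPM over 5 heart markers, against at most 59.8 TPM. The IH cerebellum library of replicate 3 at 1:30 h had 363 TPM over 5 cerebellum markers, against at least 1391 TPM in the others, and 8501 TPM of heart markers. Both carried high elastic fibre transcripts: Eln was 29.3 TPM in that liver library against at most 2.91 TPM in the other 47, and 19.9 TPM in that cerebellum library against at most 17.2 TPM. Heart markers were also present in the other cerebellum libraries (medians of all 24, 966 TPM in normoxia and 524 TPM after IH), lung markers reached 2001 TPM in a heart library, and the results for the liver and cerebellum after IH include the 2 libraries unless stated, with values without them given where they change a call. A further 9 of 24 IH lung libraries had more genes above 0 TPM than any of the 24 normoxia lung libraries, which ranged from 21746 to 25400 genes. They came from replicates 1 (5 of 8) and 2 (4 of 8), none of the 8 of replicate 3 being among them, and the members' results for the IH lung were also computed without them. Leaving out these 9 libraries, and leaving out the 2 libraries from anything but the IH difference within a tissue, were choices made after seeing the data.

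Of the 10 genes, 5 had a promoter in the RefSeq table of GRCm38.p6, and 2 are shown: Fbn1, the member with the most calls of rhythm, and Fbln1, the member in whose promoter one of the searched clock motifs was found. Each stretch is the 250 bases before a transcript start, 5′ to 3′ on the gene's strand, at chr2:125506439-125506688 (minus strand) for Fbn1 and chr15:85205699-85205948 (plus strand) for Fbln1. The motifs searched on both strands were the E-box CACGTG, the ROR site AGGTCA and the D-box TTANNTAA, and matches stand in capitals.
Fbn1 promoter: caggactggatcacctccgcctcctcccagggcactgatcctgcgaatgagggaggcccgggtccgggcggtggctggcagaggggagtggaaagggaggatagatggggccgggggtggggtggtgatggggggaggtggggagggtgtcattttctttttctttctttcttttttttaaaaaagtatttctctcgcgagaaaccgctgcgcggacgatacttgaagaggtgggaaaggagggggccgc
Fbln1 promoter: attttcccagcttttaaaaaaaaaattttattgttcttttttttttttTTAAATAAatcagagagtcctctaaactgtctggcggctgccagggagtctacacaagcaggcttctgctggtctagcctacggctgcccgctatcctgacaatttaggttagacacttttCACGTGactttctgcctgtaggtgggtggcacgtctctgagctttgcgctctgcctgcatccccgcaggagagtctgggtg
The Fbn1 stretch held none of these letters. The Fbln1 stretch held an E-box 81 bases and a D-box 202 bases before the start, and its E-box also lay 140 bases before a second annotated start. Of all 32851 promoters of this length, 6.02% held the E-box, 14% the ROR site and 5.43% the D-box. The promoters of Emilin1, Fbln2 and Fbln5 held no match. A match describes letters only, and Fbln1 was not called rhythmic in any tissue below, apart from muscle in a fit with a replicate block.

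Elastin, the core protein, was most abundant in the lung and the gene (chr5:134702593-134747323, minus strand, GRCm38) was expressed in every tissue. Its normoxia level in the lung ran from 53.0 to 213 TPM with a median of 88.6 TPM, a mean of 101 ± 35.6 TPM (SD, n = 24). The next tissues were heart at 33.5 ± 15.2 TPM and muscle at 28.2 ± 10.6 TPM, which did not differ beyond their spread (2-sided permutation test, adjusted p = 0.277). Cerebellum at 5.63 ± 2.88 TPM, kidney at 3.66 ± 0.870 TPM and liver at 1.15 ± 0.313 TPM followed, each lower than the one before. The cerebellum libraries also carried heart markers, whose part in the Eln level there was not tested.

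The fibrillins form the microfibril scaffold. Fbn1 (chr2:125300594-125507993, minus strand) had its highest normoxia level in muscle, at 16.8 ± 6.61 TPM, followed by lung at 11.9 ± 3.45 TPM, heart at 6.26 ± 3.13 TPM and kidney at 1.18 ± 0.488 TPM, with cerebellum and liver below 1 TPM. Fbn2 (chr18:58008623-58210487, minus strand), the fibrillin best known from development, was low in every tissue: its highest mean was 1.56 ± 1.47 TPM in the cerebellum and its lowest 0.0804 ± 0.114 TPM in the kidney. Fbn1 thus stood above Fbn2 in 5 of the 6 tissues by mean level, the cerebellum being the exception.

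Mfap4, a microfibril-associated glycoprotein that binds elastin and fibrillin, was the most abundant member in the lung. It ranged there from 95.7 to 470 TPM with a median of 229 TPM, a mean of 234 ± 74.7 TPM, against 15.8 ± 4.98 TPM in the heart, a log2 difference of 3.84. Kidney at 1.06 ± 0.332 TPM and liver at 0.961 ± 0.213 TPM were its lowest levels and did not differ (adjusted p = 0.318 by the permutation test). Emilin1, a glycoprotein at the interface of elastin and microfibrils, was spread more evenly, with 34.4 ± 4.84 TPM in the lung, 14.4 ± 3.78 TPM in the heart and 9.32 ± 2.89, 8.39 ± 1.5 and 7.97 ± 2.07 TPM in kidney, liver and muscle. Those last neighbours did not differ in the permutation test (adjusted p = 0.318 and 0.326), and the cerebellum was lowest at 2.13 ± 0.603 TPM. Mfap4 lies at chr11:61485431-61488900 and Emilin1 at chr5:30913402-30921277, both on the plus strand.

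Each fibulin was led by another tissue. Fbln5, which tethers elastin to cells and to lysyl oxidases, was highest in the lung at 74.8 ± 14.9 TPM (33.3 to 101 TPM, median 77.3 TPM) and second in the kidney at 47.8 TPM, where Eln was only 3.66 TPM. Fbln1, a fibulin of basement membranes and elastic fibres, was highest in the heart at 45.2 ± 12.6 TPM and then in the lung at 29.7 ± 5.75 TPM. Fbln2, which binds fibrillin and is abundant in heart valves and vessel walls, was highest in muscle at 50.4 ± 10.8 TPM and in the heart at 38.2 ± 9.09 TPM, with 13.2 ± 2.37 TPM in the lung. The liver was the lowest tissue for all 3 fibulins. Fbln5 lies at chr12:101746565-101819055 (minus strand), Fbln1 at chr15:85205949-85286535 and Fbln2 at chr6:91212455-91272540, the last 2 on the plus strand.

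The cross-linking enzymes shared 1 order of mean levels over the tissues, lung, muscle, heart, kidney, cerebellum, liver. For Loxl1, muscle and heart did not differ in the permutation test (adjusted p = 0.260). Loxl1, the lysyl oxidase-like enzyme required to maintain elastic fibres in adults, ran from 31.2 ± 11 TPM in the lung through 17.7 ± 6.29 TPM in muscle and 15.7 ± 4.99 TPM in the heart to 0.638 ± 0.199 TPM in the liver. Lox, the founding lysyl oxidase, which acts on elastin and collagen, was at 14.7 ± 4.33 TPM in the lung and 10.4 ± 2.66 TPM in muscle but only 2.13 ± 0.745 TPM in the heart. Lox lies at chr18:52516067-52529867 and Loxl1 at chr9:58287738-58313186, both on the minus strand. Over all members, 42 of 50 pairs of tissues next to each other in a member's order differed at an adjusted p of 0.05 (2-sided permutation test with 100000 resamples on log2 TPM, adjusted over the 50 pairs). The 50 include lung against heart for Eln, which was chosen on its lung values, so that pair is a description only. Libraries of different tissues were taken as independent in this test, though some may come from the same mice. Exons of Eln, Fbn1, Fbn2, Lox and Mfap4 overlap a gene on the other strand (Gm30003, Gm9913, Gm26507, AC161119.1 and Mapk7). The libraries were strand-specific, but whether the quantification used strand is not given in the sources used here, so reads of these pairs may be shared.

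**Figure D1:**
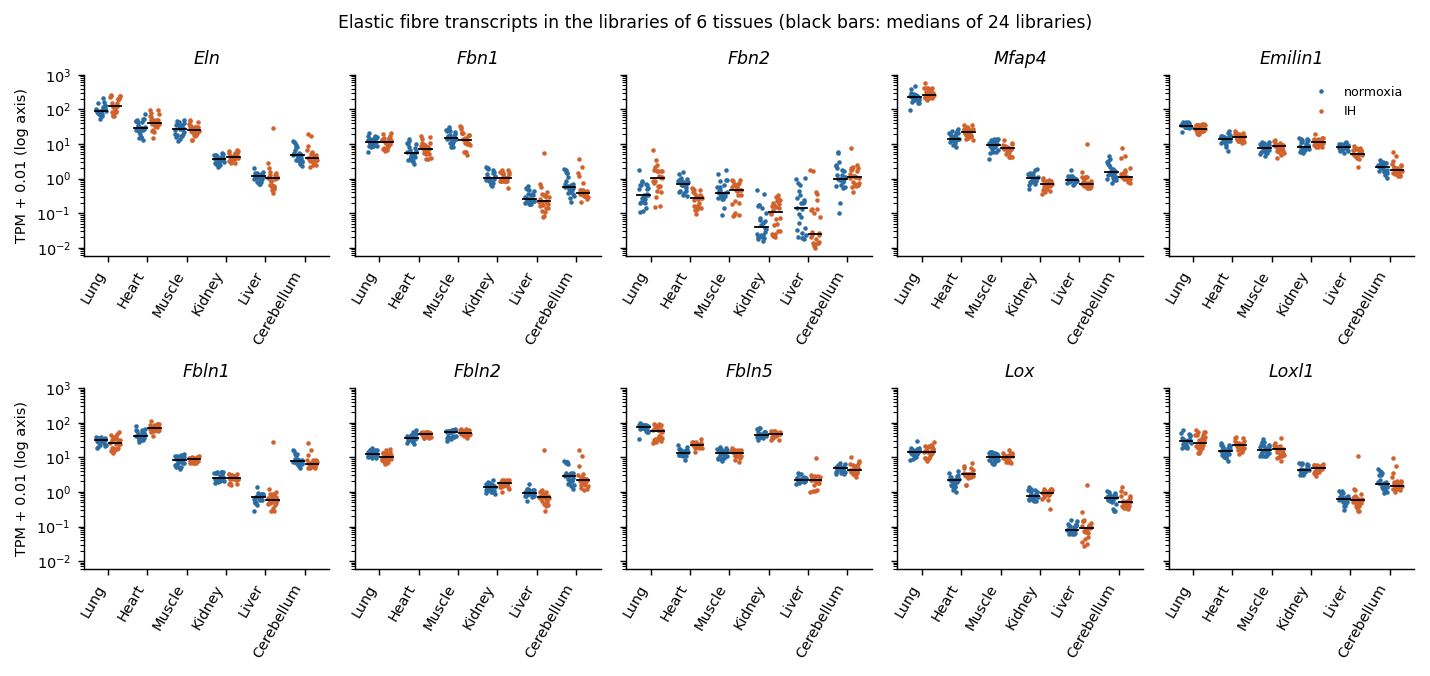
TPM of the 10 members in every library of the 6 tissues on a log axis (a small constant added for the values at 0), with a point per library, normoxia in blue, IH in orange and black bars at the medians of 24 libraries. Mfap4 (median 229 TPM in normoxia), Eln (88.6 TPM) and Fbln5 (77.3 TPM) stand highest in the lung, and in the IH liver a single point of Eln at 29.3 TPM is the library that carried heart markers.

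The comparison of IH with normoxia asked whether mean 24-hour expression of the elastic fibre genes had changed 2 days after the last exposure. Genes under an average of 1 TPM in a tissue were set aside, which left 48 of 60 member and tissue pairs, 47 of them with a test. A gene was called changed at a limma adjusted p of 0.05 with a 1.5-fold difference, and a second count used the adjusted p alone, both on log2(TPM scaled by the median of ratios + 0.5). In bulk tissue, fewer cells of a type and less RNA per cell cannot be told apart.

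In the lung, Fbln5 and Fbln2 fell by at least 1.5-fold after IH. These were 2 of the 8 members with a test, and 4.39% of all 15426 genes tested fell by the same rule. Fbln5 ranged from 33.3 to 101 TPM in normoxia (median 77.3 TPM) and from 25.7 to 91.1 TPM after IH (median 58.1 TPM). The groups overlapped, but the mean was lower after IH at 8 of 8 time points. The log2 difference was -0.78 ± 0.14 (SE, adjusted p = 3.97e-06, n = 24 libraries per group). Fbln2 went from 9.25 to 18.6 TPM (median 12.9 TPM) to a range of 6.51 to 16.9 TPM (median 10.3 TPM), again with overlap, and its log2 difference was -0.64 ± 0.09 (adjusted p = 3.67e-08).

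By the adjusted p alone, 7 of 8 lung members were lower after IH, beside 41.5% of all genes tested. The other 5 were Emilin1 (log2 difference -0.57 ± 0.08), Fbln1 (-0.43 ± 0.13), Loxl1 (-0.35 ± 0.16), Fbn1 (-0.34 ± 0.11) and Lox (-0.27 ± 0.12). The median over the 9 lung members above the minimum was -0.35, against -0.08 over all genes. Emilin1 was lower after IH at all 8 time points and within each replicate number, by -0.70, -0.66 and -0.38 on the log2 scale. Mfap4, the member most abundant in the lung, did not pass in that direction or the other (0.06 ± 0.12, adjusted p = 0.662).

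The lung result depended on scaling and on the libraries with many genes detected. The TPM as deposited shifted the median of all lung genes by 0.28 on the log2 scale against the scaled values and the share of called genes that were higher from 67.4% to 98.0%. On that scale Fbln5 (-0.48), Fbln2 (-0.34) and Emilin1 (-0.27) still passed at the adjusted p, but none reached 1.5-fold, so both 1.5-fold calls were lost. Fbln1, Fbn1 and Loxl1 no longer did, Lox turned to 0.03 and Mfap4 passed as higher, at 0.37 (adjusted p = 0.00802). Without the 9 IH libraries with the most genes detected, Fbln2 was at -0.47, Fbln5 at -0.35 and Emilin1 at -0.35, all past the adjusted p and none past 1.5-fold, while Fbln1 (-0.06), Fbn1 (-0.12), Lox (-0.00) and Loxl1 (-0.03) no longer passed.

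Those 9 libraries stood apart in the members themselves. Fbln5 was 25.7 to 53.7 TPM in the 9 (median 32.2 TPM) and 40.2 to 91.1 TPM in the other 15 IH lung libraries (median 73.3 TPM). Fbn2, too low for the test at 0.449 ± 0.363 TPM in normoxia, had a median of 1.78 TPM in the 9 and 0.607 TPM in the other 15. Eln had a median of 129 TPM in both sets. Sftpc, the surfactant protein gene of alveolar type II cells, had a median of 16220 TPM in the 9, 34080 TPM in the other 15 and 36427 TPM in normoxia. Within replicate numbers the Fbln5 difference was -1.27, -0.998 and -0.11 for replicates 1, 2 and 3, and that of Fbln1 -0.88, -0.70 and 0.26. When the log2 count of detected genes entered the fit, Fbln5 came to 0.28 and Fbln1 to 0.47 (both past the adjusted p), so the direction turned. The part of that number in the result was not tested beyond these fits.

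**Figure D2:**
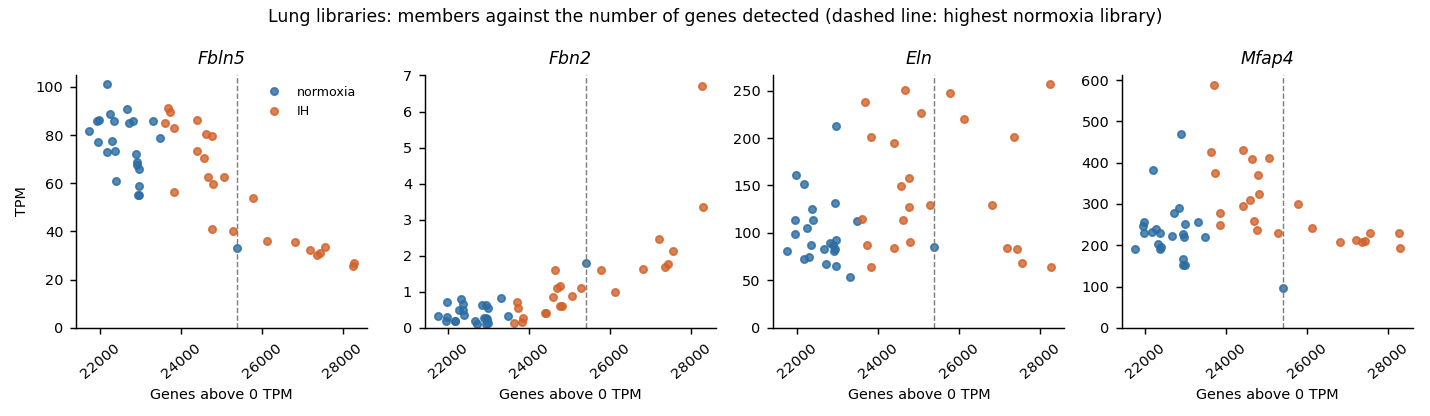
TPM of Fbln5, Fbn2, Eln and Mfap4 in each of the 48 lung libraries against the number of genes above 0 TPM in that library, normoxia in blue and IH in orange. The dashed line marks the highest normoxia library, at 25400 genes, and to its right Fbln5 stays at or below 53.7 TPM and Fbn2 above 1 TPM.

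Lung Eln, given as a description, went from a range of 53.0 to 213 TPM in normoxia (median 88.6 TPM) to 64.0 to 257 TPM after IH (median 129 TPM), and its mean was higher after IH at 6 of 8 time points. The log2 difference was 0.18 ± 0.15 on scaled values and 0.48 ± 0.16 on TPM as deposited. Within replicate numbers it was 0.05, 0.28 and 0.17. Lung Fbn2, below the minimum, went from a median of 0.334 TPM to 1.05 TPM, and without the minimum its log2 difference was 0.63 ± 0.18 (adjusted p = 0.00347).

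The summed level of 9 smooth muscle markers was 304 to 589 TPM in normoxia (median 421 TPM) and 249 to 541 TPM after IH (median 437 TPM), and none of them was at 0. For 9 fibroblast markers the medians were 521 and 515 TPM. Lower calls at 1.5-fold went to 1 of 9 smooth muscle markers (median log2 difference -0.21), 0 of 9 fibroblast markers (-0.20), 2 of 5 mesothelial markers (-0.56), 3 of 5 endothelial markers (-0.76) and 4 of 5 lung markers (-0.79), beside the 4.39% of all genes given above, and none of these lists held a higher call. The summed endothelial markers went from a median of 1138 TPM to 950 TPM, and the lung markers from 170576 TPM to 147277 TPM, with overlapping ranges. With both marker levels as further terms, Fbln5 stayed at -0.41, Fbln2 at -0.42 and Emilin1 at -0.39, past the adjusted p but not 1.5-fold, and Fbln1, Fbn1, Lox and Loxl1 no longer passed. Mfap4 came to 0.31 in that fit (adjusted p = 0.000433). Markers of other organs moved in the lung libraries too. Heart markers had summed medians of 277 TPM in normoxia and 547 TPM after IH (1 of 5 called higher). Those of skeletal muscle had 21.9 and 38.1 TPM (1 of 4 with a test called higher), both beside 9.09% of all genes called higher. Of the liver markers 0 of 5 were called, and 1 of 2 thymocyte markers with a test was lower. Their part in the result was not tested.

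In the heart the members went the other way. No member reached 1.5-fold (0 of 9, beside 2.95% of all 12779 genes), but 5 of 9 were higher by limma's adjusted p, beside 28% of all genes. An unadjusted p under 0.05, in either direction, was found for 7 of 9, beside 6645 of all 12779 genes. Fbln5 ran from 8.26 to 23.4 TPM in normoxia (median 13.6 TPM) and from 13.8 to 33.4 TPM after IH (median 23.1 TPM). It was higher at all 8 time points, with a log2 difference of 0.58 ± 0.07 (adjusted p = 4.63e-08). Fbln1 ran from 28.4 to 78.0 TPM (median 42.2 TPM) and from 40.2 to 112 TPM (median 70.1 TPM), with a log2 difference of 0.57 ± 0.09 (adjusted p = 3.25e-06). Both fell just short of 1.5-fold, at 1.49-fold each, and both passed 1.5-fold on TPM as deposited.

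The heart's cross-linking enzymes and Mfap4 also rose. Lox went from a median of 2.15 TPM to 3.20 TPM (log2 difference 0.46 ± 0.10), Loxl1 from 14.7 to 22.8 TPM (0.45 ± 0.11) and Mfap4 from 13.9 to 21.9 TPM (0.40 ± 0.11), each higher after IH at 8 of 8 time points and within all 3 replicate numbers. Eln, with 0.35 ± 0.17 (adjusted p = 0.0795), Fbln2, with 0.16 ± 0.07 (adjusted p = 0.0608), Fbn1 and Emilin1 did not pass. The member median was 0.40 against 0.04 over all genes. Fbn2 was the exception to the direction: below the minimum, it went from 0.304 to 1.51 TPM (median 0.667 TPM) in normoxia to 0.0866 to 0.529 TPM (median 0.261 TPM) after IH, and without the minimum its log2 difference was -0.72 ± 0.09 (adjusted p = 8.72e-08). TPM as deposited shifted the median of all heart genes by 0.11 and the higher share of calls from 37.4% to 66.8%, and on that scale Eln (0.47, adjusted p = 0.0281) and Fbln2 (0.29, adjusted p = 0.00267) passed as higher beside the 5.

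Marker lists had higher medians in the heart after IH, with overlapping ranges and few calls. The 9 smooth muscle markers summed to 379 to 721 TPM in normoxia (median 550 TPM) and to 498 to 983 TPM after IH (median 729 TPM), with a median log2 difference of 0.50 over the list and 2 of 9 called higher. The 9 fibroblast markers had medians of 339 and 448 TPM, a median log2 difference of 0.28 and 0 of 9 called. The 5 endothelial markers went from 206 to 280 TPM (median log2 difference 0.46, 0 of 5 called) and the 5 mesothelial markers from 42.9 to 71.7 TPM (0.47, 2 of 5 called higher), against 2.95% of all genes called in either direction. With both marker levels as further terms, Fbln5 was at 0.26 and Fbln1 at 0.17, still past the adjusted p, and Lox (0.12), Loxl1 (0.10) and Mfap4 (0.01) were not. The number of genes detected did not overlap between the heart groups, at 22988 to 28331 in normoxia and 20316 to 22793 after IH. It therefore cannot be told apart from treatment, and with it in the fit none of the 5 passed and Loxl1 turned to -0.18.

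The other tissues showed few differences. In muscle 0 of 9 members reached 1.5-fold (0.374% of all genes) and 1 of 9 was lower by the adjusted p (4.89% of all genes): Mfap4 went from a range of 3.68 to 14.2 TPM (median 9.21 TPM) to 4.16 to 12.8 TPM (median 7.46 TPM), a log2 difference of -0.42 ± 0.11 (adjusted p = 0.00577). It was higher at 1 of 8 time points by mean TPM and lower within each replicate number. In the kidney 0 of 7 reached 1.5-fold (0.783% of all genes) and 3 of 7 were higher (8.25% of all genes). These were Emilin1 at 0.36 ± 0.09, Fbln2 at 0.31 ± 0.06 and Eln at 0.28 ± 0.08, with adjusted p values of 0.00217, 0.000225 and 0.00613. Kidney Eln ran from 2.12 to 5.31 TPM (median 3.65 TPM) in normoxia and from 2.77 to 6.82 TPM (median 4.22 TPM) after IH, and its mean was higher after IH at 8 of 8 time points. Kidney Mfap4, below the minimum, went the other way, from a median of 1.02 TPM to 0.668 TPM. Its mean was higher after IH at 0 of 8 time points, and without the minimum its log2 difference was -0.39 ± 0.06 (limma adjusted p = 3.61e-05).

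In the liver 0 of 6 members reached 1.5-fold (3.65% of all genes). Of these 6, Fbln1, Fbln2 and Mfap4 were above the minimum of 1 TPM only through the library that carried heart markers, where they stood at 27.5, 16.7 and 9.98 TPM against at most 1.37, 1.64 and 1.71 TPM in the other 47. Without it 3 members remained, of which 0 reached 1.5-fold. Emilin1 alone was lower by the adjusted p (1 of 6, beside 13.3% of all genes). It ran from 5.63 to 11.5 TPM in normoxia (median 8.12 TPM) and from 2.15 to 9.01 TPM after IH (median 5.31 TPM), lower at all 8 time points, with a log2 difference of -0.43 ± 0.10 (adjusted p = 0.00118), or -0.48 without the library that carried heart markers. The differences within replicate numbers were -0.76, -0.52 and -0.02. Markers of other organs moved in the same libraries: 5 kidney markers had summed medians of 3.36 TPM in normoxia and 82.4 TPM after IH (3 of 3 with a test called higher), and 5 heart markers 12.6 and 36.8 TPM (5 of 5 called higher), while 1 of 5 liver markers was called lower. Their part in the result was not tested. TPM as deposited shifted the median of all liver genes by -0.11 and the higher share of calls from 30.2% to 11.9%. Liver Eln was at 0.12 with the library that carried heart markers and -0.10 without it, neither past the threshold. In the cerebellum no member passed either rule (0 of 8 by limma, beside 2.64% of all genes at 1.5-fold and 15% at the adjusted p in either direction). An unadjusted p under 0.05 was found for 0 of 8, beside 4514 of all 14892 genes. All 8 cerebellum differences lay between -0.27 and 0.02 with every library, and between -0.42 and -0.07 without the library that went against its label.

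**Figure D3:**
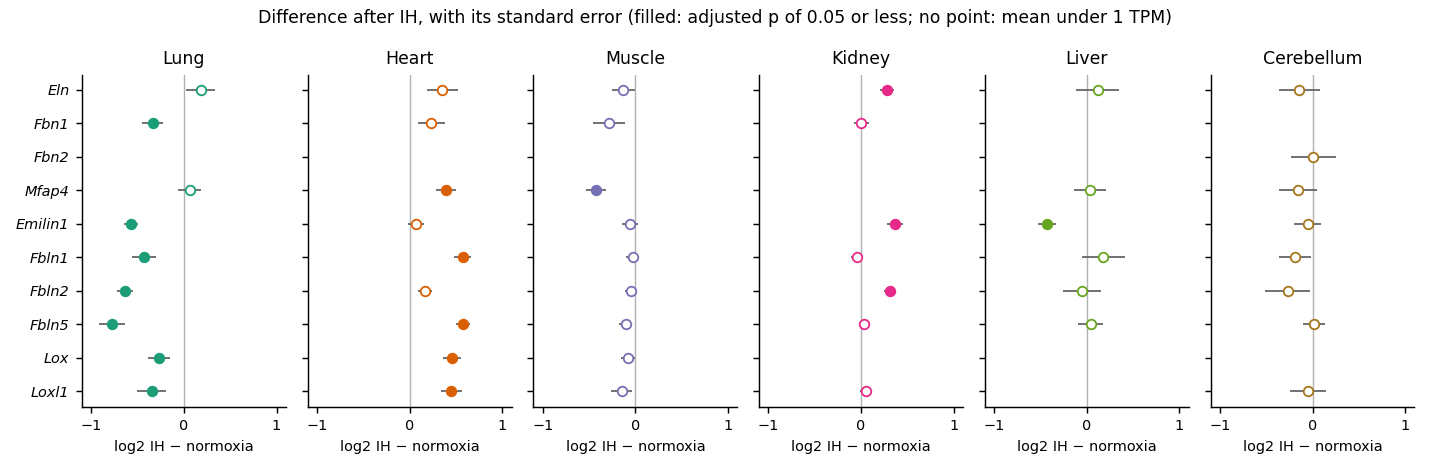
Log2 difference of IH minus normoxia with its SE for each member in each tissue, filled where the adjusted p was 0.05 or less. Lung members sit below 0 apart from Mfap4 (0.06) and Eln (0.18, no test), heart members above 0, and cerebellum members between -0.27 and 0.02.

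An interaction term asked whether the IH difference in the lung was unlike that in each other tissue. The fit took libraries of different tissues as independent, though some may come from the same mice, so its p values do not allow for such sharing. The members differed from the lung most often in the heart, where 8 of 8 were called, beside 67% of all genes tested, and all 8 had the lower difference in the lung. The widest gap was that of Fbln5, with -1.41 ± 0.16 (lung minus heart, log2, adjusted p = 3.82e-12), then Fbln1 with -1.05 ± 0.16 and Loxl1 with -0.85 ± 0.20. Kidney followed with 6 of 6 (64.4% of all genes), then muscle with 5 of 8 (58.9%), liver with 3 of 5 (56.2%) and cerebellum with 2 of 6 (53.4%). Of these, 1 had the higher difference in the lung, Mfap4 against muscle at 0.45. Outside the heart and kidney, therefore, the members' shares were close to or below those of all genes. Fbln5 was called against each of the 5 other tissues.

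These calls depended on the same settings as the lung result. On TPM as deposited 14 of 33 pairs passed: 6 of 8 against the heart, where Fbn1 and Mfap4 no longer passed, 3 of 8 against muscle (Fbln2, Fbln5 and Mfap4), 3 of 6 against the kidney (Emilin1, Fbln2 and Fbln5), 0 of 5 against the liver (Fbln5 at an adjusted p of 0.0549) and 2 of 6 against the cerebellum (Fbln5 and, higher in the lung, Mfap4). Without the 9 IH lung libraries with the most genes detected the count was 15, with 6 against the heart, 4 against muscle, 3 against the kidney, 1 against the liver and 1 against the cerebellum. Fbln5 was called against each of the 5 tissues in that setting as well, from -0.996 (heart) to -0.29 (muscle). Against the liver, the calls of Fbln1 and Fbln2 rested on the library that carried heart markers, without which both were below the minimum there, and Fbln5 stayed at -0.80 (1 of 2 members with a test called). Against the cerebellum both calls held without the library that went against its label, with Fbln5 at -0.79 and Emilin1 at -0.49.

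Daily rhythm was tested with a cosine and a sine term of 24 h, separately in each treatment, and the amplitude is the height of the fitted peak above the 24-hour mean on the log2 scale. In normoxia 5 of 47 member and tissue pairs were called at an adjusted p of 0.05, and after IH 6 of 47. Of the 10 genes, 4 made all of these calls: Eln, Fbn1, Lox and Loxl1. Their peaks lay between 20 and 4 h in all 11 cases, a window set after the peaks were seen. Mfap4, Emilin1, Fbn2 and the 3 fibulins were called in no tissue by this fit.

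Lung Eln, the gene selected on its rhythm, had in normoxia its lowest time mean at 7:30 h, with 82.6, 74.7 and 53.0 TPM, and its highest at 16:30 h, with 98.5, 114 and 213 TPM. After IH the lowest was again at 7:30 h, with 68.3, 64.1 and 64.0 TPM, and the highest at 1:30 h, with 226, 257 and 238 TPM. The trough was thus alike in both treatments, and the highest normoxia mean rested on 1 library of 213 TPM. The IH values at 1:30, 13:30, 19:30 and 22:30 h lay above every normoxia value of the same time. The cosine fit gave an amplitude of 0.41 ± 0.09 with a peak at 20.6 h in normoxia and 0.79 ± 0.08 with a peak at 21.7 h after IH, which are 1.76-fold and 3.00-fold from trough to peak.

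Of the other lung members, Loxl1 was called in normoxia (1 of 8, beside 9.15% of all genes), and none after IH (0 of 8 by limma, beside 4.65% of all genes). After IH 2 of 8 had an unadjusted p under 0.05, beside 2540 of all 15426 genes. The count of 0 after IH depended on the setting. With a cosine on TPM 2 of 8 were called (1029 of all 15426 genes), and with a replicate block 2 of 8 (1206 genes). It was also 2 of 8 on TPM as deposited, with detected genes in the fit and with marker levels in the fit. In normoxia Loxl1 had its lowest mean at 13:30 h, with 23.0, 18 and 19.9 TPM, and its highest at 4:30 h, with 60.6, 23.5 and 34.1 TPM. Its amplitude was 0.38 ± 0.09 with a peak at 23.5 h (adjusted p = 0.0249). After IH the amplitude was 0.53 ± 0.15 with a peak at 23.4 h and an adjusted p of 0.111, the replicates at 1:30 h lying at 45.0, 21.8 and 63.4 TPM. Without the 9 libraries with the most genes detected it was 0.65 ± 0.10 with a peak at 0.75 h and was called (adjusted p = 0.00622, 1 of 8 members beside 2.28% of all genes). With all libraries in the cosine fit on log2 values, lung Fbn1 (amplitudes 0.19 and 0.36) and Lox (0.20 and 0.27) were not called. In that fit Fbln5, Fbln2 and Emilin1 stayed at or below 0.15 in both treatments.

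By the cosine fit on log2 values the heart held the most rhythmic members after IH, 4 of 9 beside 4.17% of all genes, and 1 of 9 in normoxia beside 0.626%. This lead depended on the setting. After IH 1 of 9 heart members was called on TPM as deposited, 1 of 9 without replicate 2, and 1 of 9 with a cosine on TPM (197 of all 12779 genes). The lung had 2 of 8 on TPM as deposited and with a cosine on TPM. Heart Eln after IH was lowest at 7:30 h, with 24.2, 15.3 and 25.3 TPM, and highest at 1:30 h, with 95.2, 66.7 and 80.2 TPM. Its amplitude was 0.61 ± 0.10 with a peak at 23.6 h (adjusted p = 0.00165). In normoxia heart Eln had an amplitude of 0.49 ± 0.14 with a peak at 0.04 h, and an adjusted p of 0.428. So the rhythm of heart Eln was called in 1 treatment only, but the difference between treatments was itself not called, as given below.

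Lox was called in the heart in both treatments, with an amplitude of 0.40 ± 0.07 and a peak at 23.6 h in normoxia (adjusted p = 0.00966) and 0.35 ± 0.06 and 22.6 h after IH (adjusted p = 0.00289). In normoxia its lowest mean was at 13:30 h, with 1.27, 1.38 and 1.46 TPM, and its highest at 22:30 h, with 3.04, 3.94 and 2.32 TPM, so the 2 times did not overlap. Heart Fbn1 after IH had an amplitude of 0.53 ± 0.10 and a peak at 2.07 h (adjusted p = 0.00399), and Loxl1 0.38 ± 0.06 and 1.52 h (adjusted p = 0.00150). Their normoxia amplitudes of 0.51 and 0.38 were alike in size but missed the threshold (adjusted p = 0.120 and 0.196). The heart's summed fibroblast markers had a cosine of their own, of 0.25 peaking at 0.79 h in normoxia and 0.19 at 23.8 h after IH, and the smooth muscle markers one of 0.10 and 0.15. With both marker levels as further terms, Eln came to 0.37, Lox to 0.30 and Loxl1 to 0.24 after IH, all still called, while Fbn1 came to 0.35 (adjusted p = 0.0504).

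In muscle Fbn1 was called in both treatments, the sole member in each (1 of 9, beside 6.38% of all genes in normoxia and 8.83% after IH). In normoxia it was lowest at 16:30 h, with 10.2, 11.6 and 8.06 TPM, and highest at 7:30 h, with 31.3, 26.3 and 10.8 TPM. After IH the lowest time was again 16:30 h, with 10.0, 12.9 and 4.80 TPM, and the highest 1:30 h, with 34.2, 26.3 and 31.7 TPM. The amplitudes were 0.52 ± 0.09 with a peak at 3.67 h (adjusted p = 0.00179) and 0.70 ± 0.13 with a peak at 2.20 h (adjusted p = 0.00432). Muscle was the tissue in which libraries of the same replicate number deviated together in all 3 pairs, and with the replicate number as a block Fbn1 had adjusted p values of 1.43e-05 and 0.000177. In that fit Lox (amplitude 0.20, adjusted p = 0.00418), Loxl1 (0.25, adjusted p = 0.0275) and Fbln1 (0.14, adjusted p = 0.0292) were called as well in normoxia, and Fbln5 (0.19, adjusted p = 0.00947) after IH. Over all 12824 genes the block fit called 1502 in normoxia and 1482 after IH, against 818 and 1133 without the block.

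In the kidney the calls were Eln and Fbn1 in normoxia (2 of 7, beside 21% of all genes) and Loxl1 after IH (1 of 7, beside 5.74%). Kidney Fbn1 in normoxia was lowest at 16:30 h, with 0.613, 0.772 and 0.728 TPM, and highest at 7:30 h, with 1.88, 2.04 and 0.869 TPM. Its amplitude was 0.36 ± 0.06 with a peak at 2.48 h (adjusted p = 0.00128), and after IH 0.21 ± 0.05 with an adjusted p of 0.0525. Kidney Eln had an amplitude of 0.21 ± 0.06 with a peak at 22.8 h in normoxia (adjusted p = 0.0388), the same size as after IH (0.21 ± 0.07, adjusted p = 0.201). Loxl1 after IH had 0.18 ± 0.04 and a peak at 22.0 h (adjusted p = 0.0314). These are small rhythms of 1.28-fold to 1.64-fold from trough to peak.

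With all libraries, no member was called rhythmic in the liver or the cerebellum. In the liver this was 0 of 6 in normoxia, beside 17.7% of all genes, and 0 of 6 after IH, beside 2.63%. At an unadjusted p under 0.05 there were 1 and 0 members, beside 3441 and 1352 of all 11334 genes. The 6 again included Fbln1, Fbln2 and Mfap4, which only the library with heart markers put above the minimum. Without that library Eln was called after IH (1 of 3, beside 6.1% of all genes), with an amplitude of 0.48 ± 0.08 and a peak at 0.72 h (adjusted p = 0.000951). Its replicates were at 2.91, 1.04 and 2.07 TPM at 1:30 h and at 0.448, 0.554 and 0.650 TPM at 10:30 h, so these 2 times did not overlap, and at 13:30 h the 2 remaining libraries had 0.366 and 0.590 TPM. In normoxia liver Eln was not called. In the cerebellum it was 0 of 8 beside 0% of all genes in normoxia, and 0 of 8 beside 0.0134% after IH. At an unadjusted p under 0.05 there were 4 and 0 members, beside 3047 and 510 of all 14892 genes. The cerebellum amplitudes in normoxia were nonetheless large, with a median of 0.38 over the members, and highest for Eln (0.51) and Fbln2 (0.50), all with peaks between 3.84 and 5.75 h. The summed fibroblast and smooth muscle markers of the same libraries had cosine amplitudes of 0.50 and 0.41 with peaks at 4.83 and 4.23 h, and their part in the result was not tested. Of 17 clock genes, 0 were called in the normoxia cerebellum, against 17 of 17 in the normoxia lung. Without the library that went against its label, 0 of 8 members were called after IH as well.

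**Figure D4:**
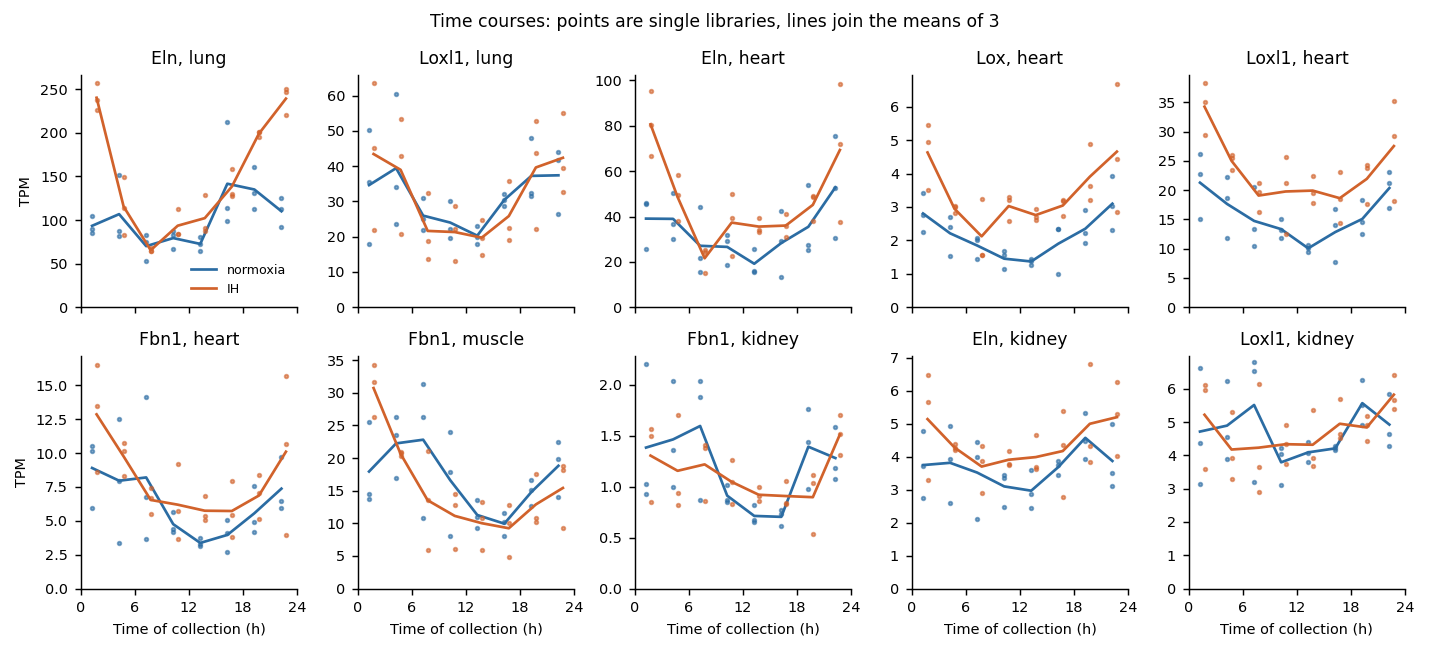
TPM over the time of collection for the members called rhythmic in some tissue and for lung Eln, with a point per library and a line through the means of 3, normoxia in blue and IH in orange. Lung Eln parts between treatments at 1:30 and 22:30 h (239 to 240 TPM after IH) and meets at 7:30 h (70.1 and 65.5 TPM), and in the heart the IH means of Lox and Loxl1 lie above those of normoxia at all 8 time points.

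The peaks of the called members all lay between 20 and 4 h, a window set after they were seen, so this is a description. In the lung only Loxl1 was called and in muscle only Fbn1. Heart Lox and muscle Fbn1 were counted in both treatments. Fbn1 peaked at 2.07 to 3.67 h in its 4 calls, against 23.6 h for heart Eln and 22.8 h for kidney Eln. Of all genes called rhythmic, 38.5% peaked between 20 and 4 h in the normoxia lung, 40% in the normoxia heart, 46.5% in the IH heart, 27.6% and 41.2% in muscle and 23.4% and 40.5% in the kidney (normoxia, then IH). Called or not, 4 of 9 lung members, 8 of 9 heart members, 6 of 9 muscle members, 5 of 7 kidney members, 1 of 6 liver members and 1 of 8 cerebellum members peaked in that window in normoxia. After IH the same counts were 5, 9, 8, 4, 1 and 6. Without the 2 libraries that went against their labels the IH counts were 2 of 3 in the liver and 2 of 8 in the cerebellum.

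**Figure D5:**
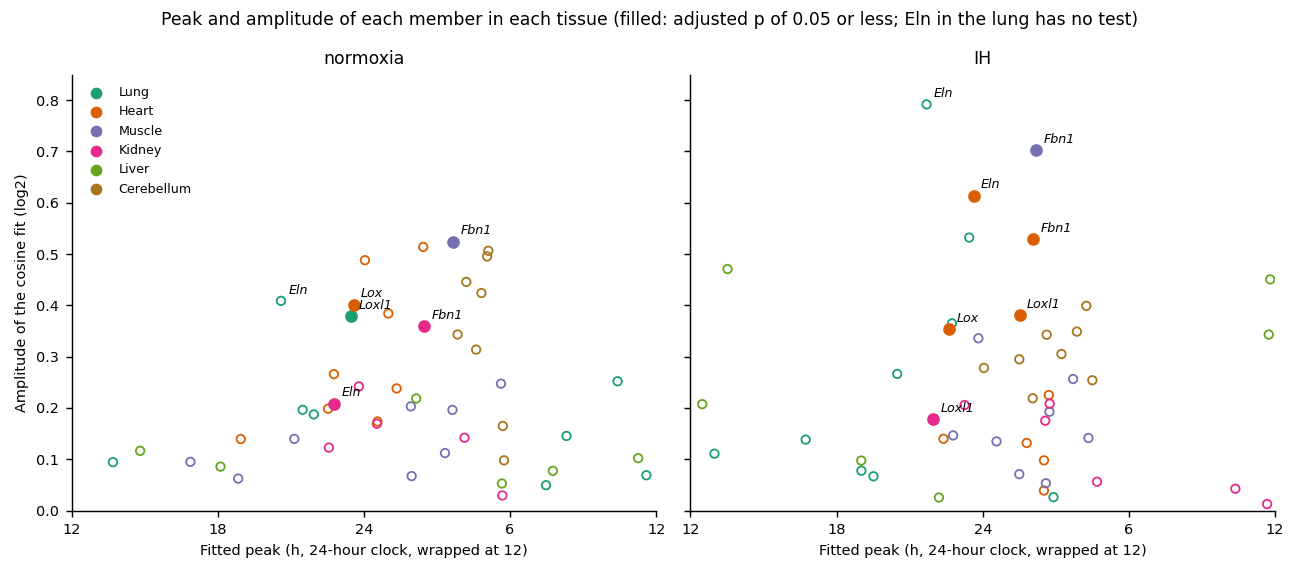
Fitted peak time (h, wrapped at 12) against log2 amplitude for each member and tissue, normoxia left and IH right, filled where called. The 11 filled points lie between 22.0 and 3.67 h, those of Fbn1 between 2.07 and 3.67 h.

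The test of a difference in rhythm between treatments called 0 genes in every tissue, so the members' count of 0 of 47 stood beside 0% of all genes in the lung, heart, muscle, kidney, liver and cerebellum alike. Among members, 0 of 47 had an unadjusted p under 0.05 in this limma fit. Over all genes the counts at that unadjusted level were 289 in the lung, 72 in the heart, 580 in muscle, 328 in the kidney, 86 in the liver and 683 in the cerebellum. The amplitude was larger after IH in 19 of the 47 pairs with a test. A rhythm called in one treatment and not in the other was therefore not shown to differ between them. A rank test of rhythm (JTK, re-implemented) called none of the 11 member rhythms, and over all genes it called fewer too, 303 in the normoxia lung against 1411 by the cosine fit and 71 in the IH heart against 533.

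The members moved together to differing degrees across libraries, given here as a description with no test. With each treatment centred, the median Pearson r over member pairs was 0.61 in the lung (36 pairs, 48 libraries), 0.66 in the heart, 0.47 in muscle, 0.50 in the kidney and 0.66 in the cerebellum (47 libraries), and -0.00 in the liver (3 pairs, 47 libraries). These libraries share the same time courses and, in the lung and cerebellum, the libraries named above. In the lung the pairs ranged from -0.01, for Eln with Fbln5, to 0.91.

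Lung Eln was selected on its rhythm in these same libraries, so a ranking against it favours genes with strong daily rhythms at both ends. The ranking is a description with no test. The genes most like Eln over the 48 lung libraries were taken as the 8 of 11697 with the highest Pearson r. They were Arntl (0.85), Dtx4 (0.85), Npas2 (0.83), Spon2 (0.83), Nfil3 (0.82), Dapk1 (0.81), Adm (0.80) and Leo1 (0.80). Arntl, Npas2 and Nfil3 encode transcription factors of the circadian clock and its output, and Adm encodes the vasodilator peptide adrenomedullin. Arntl had its lowest mean at 10:30 h in both treatments (2.15 TPM in normoxia, 2.24 TPM after IH) and its highest at 19:30 h in normoxia (17.5 TPM) and 22:30 h after IH (28.8 TPM). At the other end, Nr1d2 (-0.86) and Dbp (-0.86) were the 2 lowest of all. Among members, Fbn1 stood at rank 66 (0.61), Loxl1 at 77 (0.60) and Lox at 132 (0.54), while Mfap4 (0.11) and Fbln5 (-0.01) were far down.

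Other genes of the pathway were followed through a list of 29 further elastic fibre and microfibril genes. After IH 5 of 27 were called in the lung, 2 higher (beside 9.09% of all genes) and 3 lower (beside 4.39%), and 2 of 25 in the heart (beside 2.95%), with 0 in muscle (of 26), kidney (of 20), liver (of 12) and cerebellum (of 25) by limma. Adamts10, a protease-like protein that binds fibrillin-1, was at 45.3 ± 9.59 TPM in the normoxia lung and 129 ± 48.9 TPM after IH, a log2 difference of 1.13 ± 0.11. In the heart it went the other way, from 14.0 ± 6.07 to 8.55 ± 2.50 TPM (-0.73 ± 0.11). Bmp1, the proteinase that activates lysyl oxidases, rose in the lung from 17.6 ± 1.86 to 38.3 ± 11.5 TPM (0.76 ± 0.07), and Efemp1, a fibulin, fell from 92.8 ± 6.79 to 68.0 ± 15.1 TPM (-0.78 ± 0.08). Without the 9 IH lung libraries with the most genes detected, 1 of 27 was called, Adamts10 at 0.82, while Bmp1 (0.56) and Efemp1 (-0.58) fell short of 1.5-fold. Mmrn1, an emilin-family protein of platelets and endothelium, rose in the heart by 0.65 ± 0.08. In the cerebellum 2 of 25 were called lower once the library that went against its label was left out, Loxl2 at -0.65 and Dcn at -0.61.

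Rhythms of the same list were called for 6 of 27 genes in the normoxia lung (beside 9.15% of all genes), 1 of 26 in muscle (6.38%), 4 of 20 in kidney (21%) and 1 of 12 in liver (17.7%), and for 0 of 25 in heart (0.626%) and 0 of 25 in cerebellum (0%). After IH the counts were 3 of 27 in lung (4.65%), 1 of 25 in heart (4.17%), 4 of 26 in muscle (8.83%), 3 of 20 in kidney (5.74%) and 0 in liver (2.63%) and cerebellum (0.0134%). Without the libraries named above they were 2 of 27 in the IH lung and 1 of 11 in the IH liver. Adamts17, a relative of Adamts10, had an amplitude of 0.44 in the normoxia lung (peak 0.48 h) and 0.53 after IH (peak 23.6 h). Adamtsl4, a microfibril-binding protein, had 0.43 in normoxia muscle and 0.35 after IH, with peaks at 15.1 and 13.9 h, far from those of Fbn1 in the same tissue. Loxl4, another enzyme of the lysyl oxidase family, had 0.50 and 0.59 in the kidney with peaks at 0.36 and 23.4 h.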

How the data were processed

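Total RNA was extracted with Trizol and made into directional libraries. The reads were, per the study's methods and the submitters' processing notes, demultiplexed with bcl2fastq, checked with FastQC 0.11.3 and quantified with kallisto against Ensembl release 102 (mm10). The deposited values are gene-level TPM made by the authors, who ran DESeq2 on estimated counts that are not used here. TPM keeps no read depth: library sums ran from 989211 to 999188 TPM, no interval from counts is given, and no count test was run. The kit keeps strand, while the strand setting of kallisto is not given in the sources used here. All 288 libraries had a group in the labels, and 0 pairs held identical values.

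TPM were divided by median-of-ratios factors within a tissue, 0.5 was added and log2 taken. Genes averaging 1 TPM or more in a tissue entered limma 3.58.1 in R 4.3.3, with Benjamini-Hochberg adjustment over all of them, at a threshold of 0.05 (with 1.5-fold for calls between treatments). Treatment was fitted over 48 libraries, rhythm as cosine and sine terms of 24 h in 24 libraries, and differences between tissues or in rhythm as interactions. Levels of neighbouring tissues were compared by permutation. Both kinds of comparison between tissues took libraries as independent, though some may come from the same mice. The functions were tested on simulated data. Members, gene lists and tests were chosen with earlier results of these data known. All 10 members were named, and genes of other lists only where called. The genes most like Eln were the 8 with the highest Pearson r among genes averaging 5 TPM or more. Same-numbered libraries of both treatments deviated together in all 3 pairs in muscle alone (r = 0.16, 0.38 and 0.65), which met the criterion for pairing. Yet normoxia replicate 1 of muscle had r = 0.67 with IH replicate 2, above its 0.16 with its own number. The number therefore need not mark a true pair. Promoters are from RefSeq, GRCm38.p6, and gene positions from the GRCm38 annotation. Python 3.11.15, scipy 1.17.1, numpy 2.4.6 and pandas 2.3.3 were used. Alternatives covered the pseudocount, the minimum, scaling, left-out replicates, a replicate block, a rank test, left-out libraries that stand apart, and terms added after seeing the data for detected genes and marker levels.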

Additional observations from a re-analysis of the deposited data

Results flagged for a closer look

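For 24 pairs of a member and a tissue, the difference after IH in the lung was unlike that in the other tissue by the limma interaction test (adjusted p of 0.05, values as lung minus other tissue on the log2 scale). Against the heart these were Fbln5 (-1.41), Fbln1 (-1.05), Loxl1 (-0.85), Fbln2 (-0.83), Lox (-0.80), Emilin1 (-0.69), Fbn1 (-0.62) and Mfap4 (-0.39). Against the kidney they were Fbln2 (-1.01), Emilin1 (-0.99), Fbln5 (-0.86), Loxl1 (-0.46), Fbln1 (-0.44) and Fbn1 (-0.40). Against muscle they were Fbln5 (-0.71), Fbln2 (-0.61), Emilin1 (-0.55), Fbln1 (-0.44) and, with the opposite sign, Mfap4 (0.45). Against the liver they were Fbln5 (-0.91), Fbln1 (-0.70) and Fbln2 (-0.61), and against the cerebellum Fbln5 (-0.88) and Emilin1 (-0.59). The medians of all genes tested were -0.20, -0.15, -0.14, -0.20 and -0.16 in the same order of tissues. In the liver Fbln1 and Fbln2 were above the minimum level only through the IH library of replicate 2 at 13:30 h, which carried heart markers, so without it neither had a test. Without the 9 IH lung libraries with the most genes detected 15 pairs were called.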

How the results depend on the processing

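Calls are counted over the 47 member and tissue pairs unless stated. The 2 calls between treatments became 4 without a minimum level. The further 2 were lung Fbn2 (higher) and heart Fbn2 (lower), pairs outside the 47. In settings chosen after seeing the data the 2 calls became 1 with detected genes in the fit, 0 without the 9 IH lung libraries with the most detected genes and 0 with marker levels in the fit. The 1 call with detected genes was a lung member higher after IH, so neither of the 2 lower calls, Fbln5 and Fbln2, held there. Leaving out 1 replicate number gave 1 to 8 calls: 1 without replicate 1 (lung Fbln2), 3 without replicate 2 (lung Fbln5, heart Fbln1 and Fbln5) and 8 without replicate 3 (lung Emilin1, Fbln1, Fbln2, Fbln5, Fbn1, Loxl1 and, higher, Fbn2, and liver Emilin1). The 5 rhythms in normoxia became 2 on TPM as deposited, 2 with a minimum of 5 TPM (of 30 pairs), 1 with a cosine on TPM, 0 by the rank test, 10 with marker levels in the fit and 1 to 4 without 1 replicate number. The 6 after IH became 0 by the rank test, 10 with detected genes in the fit and 3 to 4 without 1 replicate number. On TPM as deposited, and likewise with a cosine on TPM, the calls after IH were 2 in the lung, 1 in the heart and 1 in muscle. The 24 differences between lung and another tissue became 14 on TPM as deposited, 15 without those 9 lung libraries and 16 to 26 without 1 replicate number. Causes of these changes were not tested.

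With the replicate number as a block there were 12 rhythms in normoxia and 11 after IH, 2 calls between treatments, 24 between tissues and 0 differences in rhythm. That fit called more rhythms over all genes as well. In normoxia it called 3277 of 12902 in the kidney against 2704 without the block, and 1502 of 12824 in muscle against 818. In the IH heart it called 700 of 12779 against 533. Outside muscle the libraries share only a number, and in muscle too the labels name no pair of mice. Of 52 single results over 533 alternatives, 406 kept direction and side of the adjusted p threshold, 119 lost it and 8 changed direction. With detected genes in the fit these were lung Fbln1 (0.47), Fbln5 (0.28), Fbn1 (0.29), Lox (0.36) and Loxl1 (0.49) and heart Loxl1 (-0.18), with TPM as deposited lung Lox (0.026), and with marker levels lung Loxl1 (0.0067). The depth behind the TPM is unknown, so levels near 0 carry no stated counting error.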

Other observations

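The enzymes that break elastic fibres down, and their inhibitors, were followed as a list of 14 genes. None was called between treatments in any tissue by limma at 1.5-fold. Mmp14, a membrane-bound matrix metalloproteinase, was rhythmic in the heart in both treatments, with amplitudes of 0.51 ± 0.05 (peak 1.92 h) in normoxia and 0.44 ± 0.06 (peak 0.30 h) after IH. It was also called in muscle (0.39 and 0.38, peaks at 2.81 and 23.9 h) and in the kidney (0.30 and 0.22, peaks at 2.78 and 2.26 h) in normoxia and after IH, and in the cerebellum after IH (0.48, peak 0.74 h, or 0.50 without the library that went against its label).

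Timp3, a matrix-bound inhibitor of such proteinases, peaked on the other side of the day. Its amplitude was 0.43 in the normoxia lung (peak 12.8 h), 0.47 in the normoxia liver (peak 13.4 h) and 0.38 in the heart after IH (peak 12.8 h). In muscle it was called in both treatments, with 0.36 (peak 13.49 h) and 0.35 (peak 11.7 h). Whether these rhythms differed between treatments was tested for all genes, and none was called.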
